A study of Mus musculus with 2 samples.

Results

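The genes described here are the mucins of the intestine that are built into cell membranes, together with mucins secreted outside the goblet cells of this tissue: Muc1, Muc3, Muc3a, Muc4, Muc13, Muc15, Muc16, Muc20, Muc5b and Muc6. They were chosen by gene symbol, and all 10 were found among the 40879 gene symbols of the series. RNA of the intestine of ERAP1 WT mice and of ERAP1+/- mice was compared, with 1 library per genotype, each made from equal amounts of RNA pooled from 3 individual samples. The mice were on a C57BL/6 background, and no DSS or sulfasalazine is named for these libraries. The study's discussion describes its comparison of the genotypes by sequencing as one under steady-state conditions. By the study's description mice were 8 weeks old when assigned to groups, and tissue was collected later, at the end of the experiment. The ERAP1+/- mice carry 1 allele in which exons of Erap1, the gene of an aminopeptidase that trims peptides for MHC class I, were removed after crossing to a Cre-expressing strain, and the mutant line goes back to a single clone of embryonic stem cells. The labels and methods call the tissue intestine, and the study elsewhere refers to it as colon. The promoter that drove Cre is not stated in the sources used here.

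Mucins are proteins with long stretches rich in serine, threonine and proline that carry dense O-linked sugars. Transmembrane mucins stay anchored in the apical membrane, where in the intestine they form the glycocalyx on the brush border and several of them can be cleaved and shed. Gel-forming mucins are secreted instead, and Muc2 from goblet cells is the main one of the colon, while Muc6 belongs to glands of the stomach and duodenum and Muc5b to airways and salivary glands.

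The libraries held 8114826 reads for ERAP1 WT and 8907515 for the library labelled ERAP1+/-, counted at the 3' ends of transcripts. Values are CPM, reads relative to a library size that the TMM method of edgeR adjusts, or log2(CPM + 1), and each 95% interval is exact and covers counting error only. With 1 library per genotype no difference has a replicate check and none has a p-value. Reads of the targeted Erap1 numbered 229 in ERAP1 WT and 2 in the library labelled ERAP1+/- (log2 difference -4.65), fewer than 1 intact copy would give. Its 3' end lies outside the deleted exons, and Cast covers its last 500 bases on the opposite strand, so these reads do not test the deletion itself. The labelled tissue showed its epithelial markers in both libraries, with 9812 and 9413 reads of Epcam. Below, ERAP1 WT and ERAP1+/- stand for the libraries so labelled. Because the tissue was sequenced in bulk, fewer cells of a type and less RNA per cell cannot be told apart in any difference below.

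Almost all RNA of the 10 genes in both libraries came from Muc13 and Muc3. Of the summed reads of the 10 genes, these genes held 99.2% of 50074 reads in ERAP1 WT and 98.2% of 34095 reads in ERAP1+/-. The sum made up 0.617% of all reads in ERAP1 WT and 0.383% in ERAP1+/-. Muc13 and Muc3 were lower in ERAP1+/-, Muc4 was higher, Muc3a did not differ beyond counting error, and the other members had 63 reads or fewer.

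**Figure D1:**
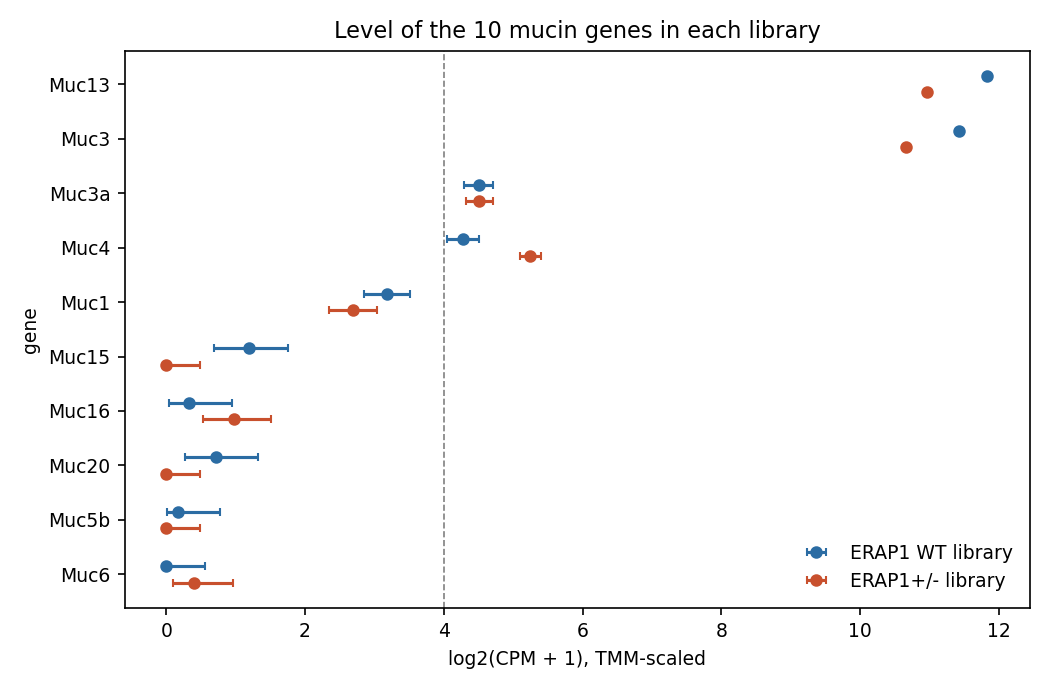
Level of each of the 10 genes as log2(CPM + 1), TMM-scaled, in ERAP1 WT (blue) and the ERAP1+/- library (orange), with exact 95% Poisson intervals for counting error, and a dashed line at 4, the level needed for a call. Muc13 and Muc3 lie above 10 in both libraries, and 4 of the 10 genes reach the line.

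A gene was called past 2-fold where its log2(CPM + 1) differed by more than 1 between the libraries and reached at least 4 in 1 or both of them. Of the 10 genes, 4 reached that level (Muc13, Muc3, Muc4 and Muc3a), and 0 of these 4 were past 2-fold. No test stands behind this count. Among all 8013 features at that level, 5.34% were past 2-fold, 1.39% higher in ERAP1+/- and 3.96% lower. Muc4 was just short with a difference of 0.97, and 103 features lay within 0.05 of the threshold on either side. Muc4 was past 2-fold in 3 alternatives, with scaling by the total count, with scaling to epithelial genes, and with a smaller pseudocount.

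Muc13, a transmembrane mucin of the intestinal brush border, had the most reads of the 10 genes in both libraries. It had 28382 reads in ERAP1 WT (3653 CPM, 95% interval 3610 to 3695) and 18494 in ERAP1+/- (1988 CPM, 1960 to 2017). Its level was 1.84-fold lower in ERAP1+/- (95% interval 1.80 to 1.87), a log2 difference of -0.88. By reads, Muc13 was the 12th feature of ERAP1 WT and the 30th of ERAP1+/-. Of the 87 features with a mean log2(CPM + 1) of at least 10, 6 had a lower difference than Muc13, and of all 8013 features at the level for a call, 4.95% did.

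Muc3, a large transmembrane mucin of enterocytes, came next in both libraries. It had 21299 reads in ERAP1 WT (2741 CPM, 95% interval 2704 to 2778) and 14991 in ERAP1+/- (1612 CPM, 1586 to 1638). Its level was 1.70-fold lower in ERAP1+/- (95% interval 1.67 to 1.74), with a log2 difference of -0.77. Of the 87 highest features 11 had a lower difference, and 6.31% of the 8013 did. Muc13 and Muc3 thus differed in the same direction and by similar amounts. The reads of Muc3 per read of Muc13, a value that no scaling of the libraries touches, were 0.750 in ERAP1 WT and 0.811 in ERAP1+/-, and the second value was 1.08 times the first (95% interval 1.05 to 1.11).

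Muc4, a transmembrane mucin with EGF-like domains that can bind the receptor ErbB2, was the only member with a level above 4 that was higher in ERAP1+/- by more than counting error. It had 143 reads in ERAP1 WT (18.4 CPM, 95% interval 15.5 to 21.7) and 344 in ERAP1+/- (37.0 CPM, 33.2 to 41.1). The ratio of ERAP1+/- to ERAP1 WT was 2.01 (95% interval 1.65 to 2.46). Of the 8013 features at the level for a call, 1.55% had a higher difference. Per read of Muc13, Muc4 reads were 3.69-fold higher in ERAP1+/- (95% interval 3.03 to 4.52), and per read of Muc3 they were 3.42-fold higher (2.80 to 4.19). Muc4 took 0.286% of the summed reads of the 10 genes in ERAP1 WT (95% Clopper-Pearson interval 0.241 to 0.336) and 1.01% in ERAP1+/- (0.906 to 1.12).

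Muc3a, a separate gene annotated near Muc3, had 169 reads in ERAP1 WT (21.7 CPM, 95% interval 18.6 to 25.3) and 203 in ERAP1+/- (21.8 CPM, 18.9 to 25.0). Its ratio was 1.00 with a 95% interval from 0.814 to 1.24, so that a difference within that interval was not detectable at this depth. Against its neighbor Muc3, its reads were 1.71-fold higher in ERAP1+/- (95% interval 1.38 to 2.11). Muc1, a transmembrane mucin of many glandular epithelia, had 63 reads in ERAP1 WT (8.11 CPM, 6.23 to 10.4) and 51 in ERAP1+/- (5.48 CPM, 4.08 to 7.21). It was 1.48-fold lower with an interval from 1.01 to 2.18. With scaling by the total count the interval of the ratio, with an upper bound of 1.08, included 1, as did that of its reads per read of Muc13 (ratio 1.24, 0.841 to 1.83).

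The order of the members differed between the libraries at 1 place among the genes with more than 50 reads. In the ERAP1 WT library it was Muc13, Muc3, Muc3a, Muc4 and Muc1, and in ERAP1+/- Muc4 stood before Muc3a. Reads at 3' ends count transcripts and not their length, so these levels were not divided by length. Muc3a and Muc4 did not differ beyond counting error in ERAP1 WT (ratio 1.18, 95% interval 0.940 to 1.49), whereas in ERAP1+/- Muc4 had 1.69 times the reads of Muc3a (1.42 to 2.03). Muc13 exceeded Muc3 in both libraries, 1.33-fold (1.31 to 1.36) in ERAP1 WT and 1.23-fold (1.21 to 1.26) in ERAP1+/-. The step from Muc3 to the next gene was the widest, 126-fold in ERAP1 WT and 43.6-fold in ERAP1+/-. Below Muc1, the remaining neighbors in the order of either library did not differ beyond counting error.

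Muc13, Muc4 and Muc20 lie on mouse chromosome 16. In GENCODE M21 on the build GRCm38, Muc13 spans 33794037 to 33819934 on the plus strand with its last exon at 33818875 to 33819927. Muc4 spans 32735886 to 32782391 on the plus strand and Muc20 spans 32777419 to 32797435 on the minus strand, so that their ends overlap. Muc3 (137134922 to 137149322) and Muc3a (137208813 to 137212389) lie on the minus strand of chromosome 5, 59490 bases apart. Although the genes of each pair are neighbors, Muc3 and Muc3a shared no run of a read length near their ends: within the last 500 bases of Muc3-201, 0 of 426 runs of 75 bases, the read length, occur in a transcript of another gene, and the same holds for Muc3a-201, Muc13-202, Muc4-205 and Muc1-201. Muc20 is the exception, since 121 of 426 such runs match Muc4 on the opposite strand.

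The promoters of the 3 members with the clearest differences are shown because Muc13 and Muc3 were lower together and Muc4 was higher. RefSeq on GRCm38.p6 gave promoters, from 250 bases before to 50 bases after a start, for 7 of the 10 genes, with 2 starts for Muc13. For Muc3 the RefSeq gene begins upstream of the GENCODE M21 model. All are written 5' to 3' on the strand of the gene. Capitals mark matches, on either strand, to the letters TATAAA of the basal promoter element, TTTATG or else TTTATT for CDX factors, GTTAAT for HNF1, AGATAA for GATA factors, GGGCGG for Sp1, TTCNNNGAA for STAT factors and CAAAGTCCA for HNF4. None of these matches overlap.
Muc13, first start, plus strand, chr16:33793787-33794086: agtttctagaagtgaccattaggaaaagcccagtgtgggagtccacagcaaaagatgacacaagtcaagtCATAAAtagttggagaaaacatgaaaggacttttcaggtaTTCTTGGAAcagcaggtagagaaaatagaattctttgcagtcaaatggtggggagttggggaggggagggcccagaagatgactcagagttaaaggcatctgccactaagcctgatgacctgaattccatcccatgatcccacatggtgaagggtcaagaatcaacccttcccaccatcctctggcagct
Muc13, second start, plus strand, chr16:33794239-33794538: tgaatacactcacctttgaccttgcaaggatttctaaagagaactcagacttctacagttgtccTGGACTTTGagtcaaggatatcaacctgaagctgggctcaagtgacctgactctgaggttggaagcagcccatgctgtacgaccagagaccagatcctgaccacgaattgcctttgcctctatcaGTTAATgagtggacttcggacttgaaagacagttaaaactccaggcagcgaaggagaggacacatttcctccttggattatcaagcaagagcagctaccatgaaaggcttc
Muc3, minus strand, chr5:137165997-137166296: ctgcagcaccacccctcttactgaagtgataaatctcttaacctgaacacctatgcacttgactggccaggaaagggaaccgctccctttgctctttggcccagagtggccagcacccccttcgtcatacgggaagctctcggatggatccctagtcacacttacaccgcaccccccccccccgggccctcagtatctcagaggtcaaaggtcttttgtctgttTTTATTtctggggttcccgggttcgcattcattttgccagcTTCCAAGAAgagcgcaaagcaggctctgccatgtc
Muc4, plus strand, chr16:32735636-32735935: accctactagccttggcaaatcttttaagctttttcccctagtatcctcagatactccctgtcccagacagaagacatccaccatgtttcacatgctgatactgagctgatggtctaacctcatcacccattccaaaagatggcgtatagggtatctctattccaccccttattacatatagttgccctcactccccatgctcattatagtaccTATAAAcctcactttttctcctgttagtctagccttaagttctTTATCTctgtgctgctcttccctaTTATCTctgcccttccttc

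The first Muc13 promoter and the Muc3 promoter each held a STAT match and a CDX match, the latter with different letters in each. The Muc4 promoter and the second Muc13 promoter held neither. With positions counted from the start, TTTATG stood on the opposite strand of the first Muc13 promoter at -180, and TTTATT stood at -26 in the Muc3 promoter. Of the 32851 promoters of this length, 11.9% hold TTTATG and 19.6% hold TTTATT. Either counts as a CDX match here, and the share of promoters that hold either was not counted. TTCNNNGAA matched at -140 in the first Muc13 promoter and at 16 in the Muc3 promoter and is found in 8.30% of all. The second Muc13 promoter held GTTAAT at -61, found in 7.10% of all, and CAAAGTCCA on the opposite strand at -186, found in 0.475%. The Muc4 promoter held TATAAA at -36, found in 13.6% of all, and AGATAA on the opposite strand at 8 and at 32, found in 11.2%. These matches describe the sequence and were not measured as binding. The CDX genes Cdx1 (1080 and 1772 reads) and Cdx2 (86 and 172) were higher in ERAP1+/-. They were named after their values were seen, and reads of STAT, HNF1, HNF4, GATA and Sp1 genes are not given here. Whether any match bears on the differences of these mucin genes was not tested.

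Muc13 and Muc3 were also lower relative to other epithelial genes of the same libraries. Per 1000 reads of 14 pan-epithelial genes, Muc13 had 385 reads in ERAP1 WT and 244 in ERAP1+/-, a ratio of 0.633 (95% interval 0.622 to 0.645). For Muc3 the values were 289 and 198, a ratio of 0.684 (0.670 to 0.699). Muc4 had 1.94 and 4.54, a ratio of 2.34 (1.92 to 2.86). These ratios rest heavily on Lgals4, which gave 22956 of the 73631 pan-epithelial reads in ERAP1 WT and 27348 of 75752 in ERAP1+/-. Set against 14 genes of surface colonocytes, the differences of Muc13 and Muc3 were smaller, with ratios of 0.775 (0.760 to 0.789) and 0.837 (0.819 to 0.854), and that of Muc4 was larger, with a ratio of 2.86 (2.35 to 3.50). Scaling by the total count moved the median of all features at the level for a call by 0.12 on the log2 scale, and scaling to the pan-epithelial genes moved it by 0.21. Under these 2 scalings Muc13 was 1.68-fold and 1.58-fold lower and Muc3 1.56-fold and 1.46-fold lower.

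**Figure D2:**
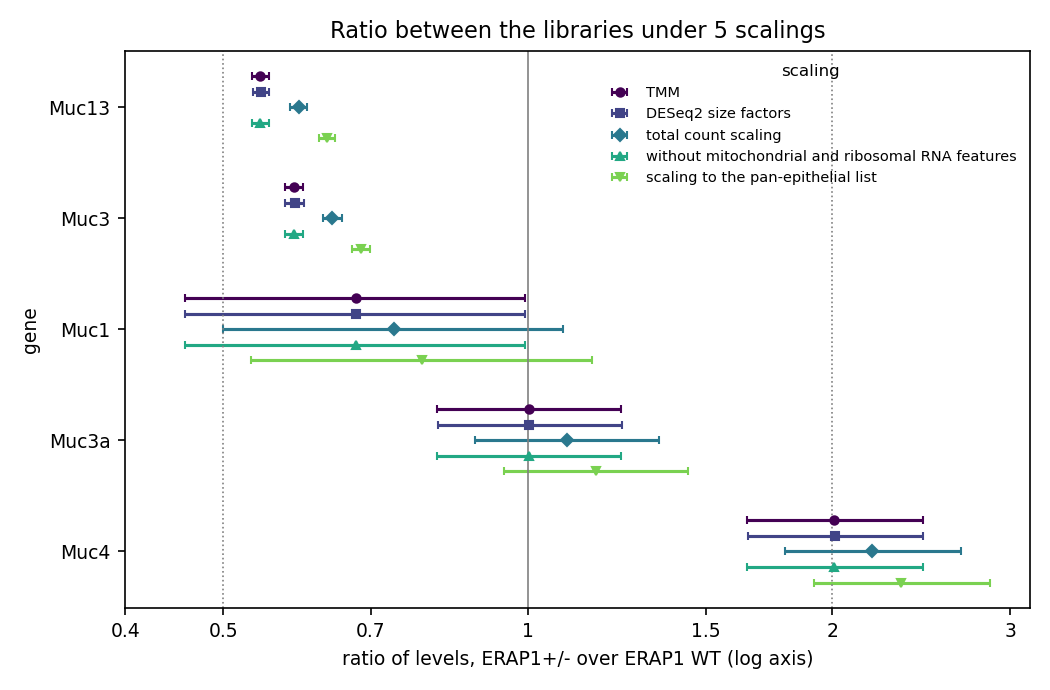
Ratio of levels, ERAP1+/- over ERAP1 WT, for the 5 genes with more than 50 reads, on a log axis, under 5 scalings of the libraries, with exact 95% intervals for counting error and dotted lines at 0.5 and 2. Muc13 and Muc3 stay between 0.5 and 1 and Muc4 at or above 2 under each scaling, while the intervals of Muc3a include 1.

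Surface colonocyte genes, markers of the mature cells that face the lumen, were mostly lower in ERAP1+/-, as Muc13 and Muc3 were. Of 14 such genes with at least 10 reads, 12 were lower and 2 higher, with a median log2 difference of -0.72, beside 0.00 over the 16142 features with that many reads. At the level for a call, 5 of 13 were past 2-fold lower, beside 3.96% of all features. Among them were Clca4a (-1.58), Emp1 (-1.35), Krt20 (-1.20), a keratin of mature colonocytes, and the carbonic anhydrase Car4 (-1.11). With scaling by the total count 3 of 13 were past 2-fold lower. Car1 and Saa1, which with Car4 had the most reads, had differences of -0.82 and -0.08. The summed level of the list was 11744 CPM in ERAP1 WT and 8252 CPM in ERAP1+/-. The brush border list, whose genes organize or coat microvilli, had 13 of 14 lower, a median of -0.53, and 1 gene past 2-fold, Ceacam20 (-1.07), which was not past it with scaling by the total count. Ceacam1, an adhesion molecule that is also in the surface colonocyte list, had -0.21, and Ezr, which ties membrane proteins to actin, had -0.60. Cdhr5, a mucin-like protocadherin of microvilli, had 5526 and 3915 reads and was 1.69-fold lower (95% interval 1.62 to 1.76), close to Muc3. Whether the lower levels of Muc13 and Muc3 are part of the difference in surface colonocyte genes was not tested.

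Among genes that cleave membrane mucins or act beside them, 13 of 16 were lower and 3 higher, with a median log2 difference of -0.33. Lgals3, a galectin that binds mucin sugars, was past 2-fold lower (22971 and 12664 reads, log2 difference -1.12), though not with scaling by the total count, and Lgals4, also a galectin, had 22956 and 27348 reads and a difference of -0.0071. Cftr, the chloride channel of crypts, was past 2-fold higher (352 and 978 reads, 1.20). Mep1a, a subunit of the protease meprin, was 1.77-fold lower, while the sheddases Adam10 and Adam17 had log2 differences of 0.18 and -0.39. Pan-epithelial genes had a median of -0.31, with 10 of 14 lower and 0 past 2-fold. The adhesion genes Cdh1 and Epcam had -0.43 and -0.32.

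Muc2, the gel-forming mucin of goblet cells, differed in the opposite direction to Muc13 and Muc3. It had 12020 reads in ERAP1 WT and 32939 in ERAP1+/-, a ratio of 2.29 (95% interval 2.24 to 2.34), and was past 2-fold higher. Of the reads of Muc2, Muc13 and Muc3 together, Muc2 took 19.5% in ERAP1 WT (95% Clopper-Pearson interval 19.2 to 19.8) and 49.6% in ERAP1+/- (49.21 to 49.97). Muc13 took 46.0% and 27.8%, and Muc3 34.5% and 22.6%. In the ERAP1 WT library Muc13 and Muc3 each had more reads than Muc2, and in ERAP1+/- Muc2 had more than either. Per read of Muc13, Muc2 was 4.21-fold higher in ERAP1+/- (95% interval 4.09 to 4.33). Muc2 and Muc4 were both higher in ERAP1+/-: the reads of Muc2 per read of Muc4 were 84.1 and 95.8, with a ratio of 1.14 whose interval (0.930 to 1.39) includes 1.

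**Figure D3:**
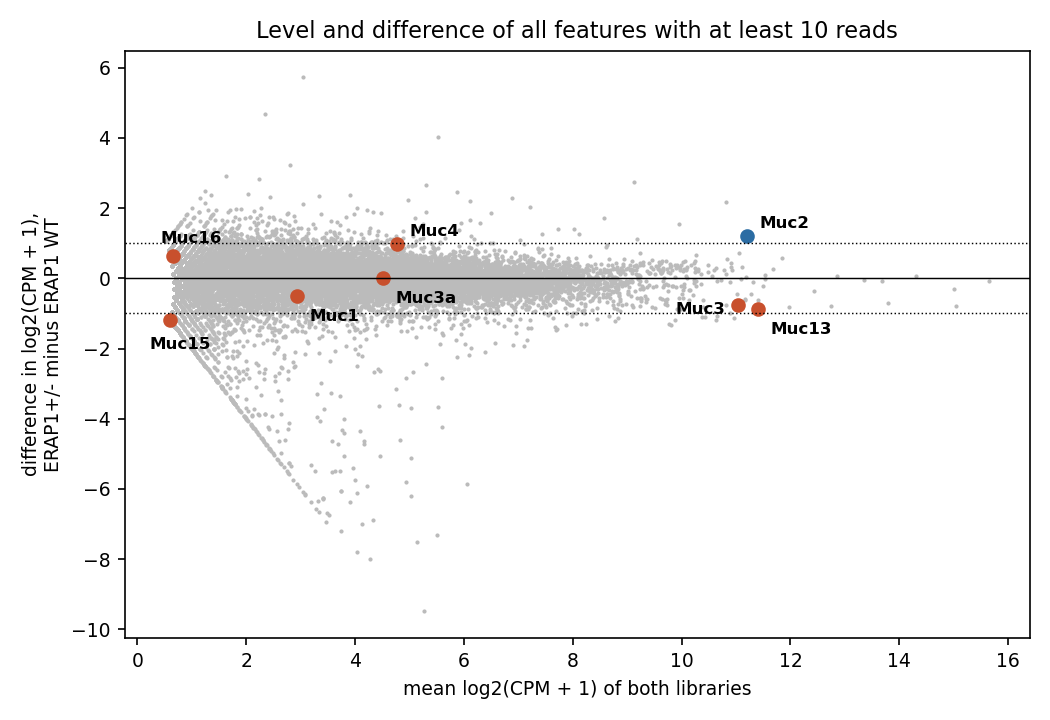
Mean level of both libraries (x axis, log2(CPM + 1)) against the difference between them (y axis, ERAP1+/- minus ERAP1 WT), for all 16142 features with at least 10 reads (grey), with mucin genes in orange, Muc2 in blue and dotted lines at 2-fold. Muc13 and Muc3 lie below 0 and Muc2 above 1 at the high end of the levels, and Muc4 lies just under the upper 2-fold line.

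Goblet cell genes, a list that includes Muc2 itself, were higher in ERAP1+/- in 18 of 18, with a median log2 difference of 0.77. Of all features with at least 10 reads, 50.3% were higher. At the level for a call, 4 of 15 goblet cell genes were past 2-fold higher, beside 1.39% of all features. These were Atoh1 (1.35), Muc2 (1.19), Sytl2 (1.16) and Klk1 (1.12). Among the most abundant, Zg16 and Clca1 had differences of 0.58 and 0.72. Enzymes that start or extend O-linked sugars on mucins had a median of 0.21, with 18 of 25 higher, or 21 of 25 with scaling by the total count. Over all features with at least 10 reads, 50.3% were higher, or 60.4% with scaling by the total count. The sugar transferases B4galnt2, Galnt7 and St6galnac6, with the most reads, had 0.25, 0.44 and 0.21. Only Gcnt1, which branches core 1 sugars to core 2, was past 2-fold in that list of 20 at the level for a call, and it was lower (1345 and 702 reads, log2 difference -1.19), whereas Gcnt3, the mucin-type enzyme of the same family, had 334 and 648 reads (0.68).

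**Figure D4:**
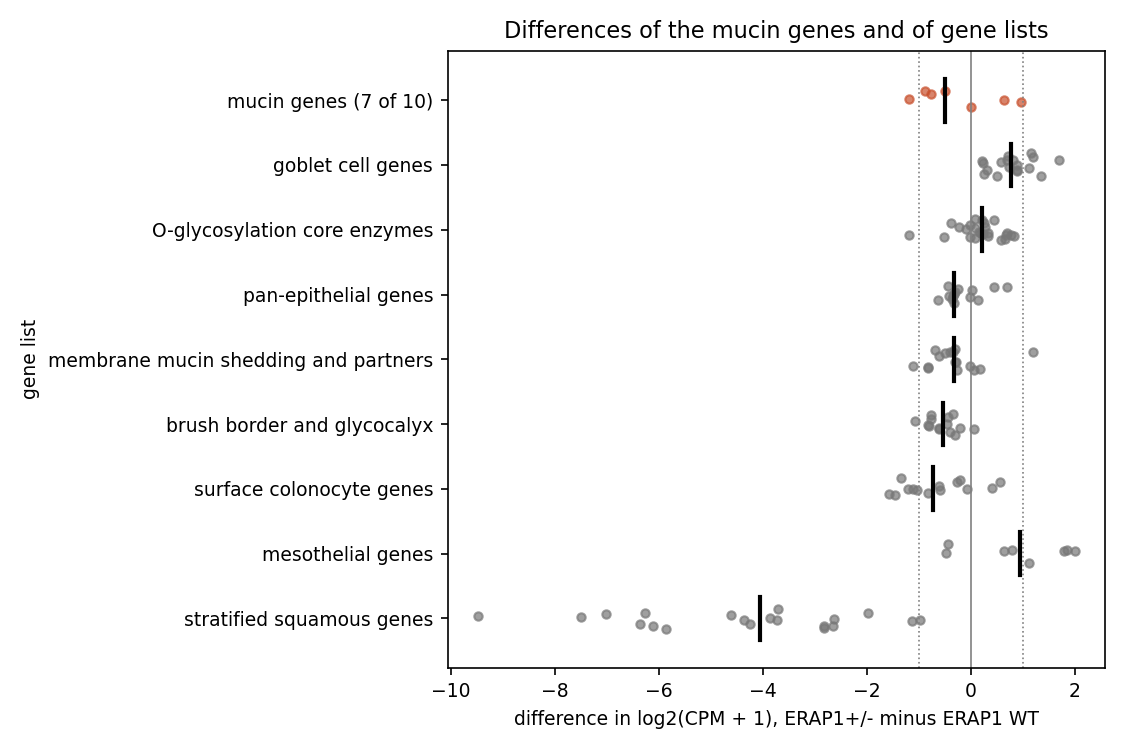
Difference in log2(CPM + 1), ERAP1+/- minus ERAP1 WT, for the 7 of the 10 mucin genes with at least 10 reads over both libraries (orange) and for genes of 8 lists (grey); each point is a gene, black bars are medians and dotted lines mark 2-fold. Goblet cell genes lie above 0, surface colonocyte and brush border genes mostly below it, and stratified squamous genes lie at -0.98 and below.

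The other 5 members had few reads in both libraries. Muc15, a transmembrane mucin, had 10 reads in ERAP1 WT and 0 in ERAP1+/-. A count of 0 was set at 3 reads, or 0.322 CPM in ERAP1+/-, where the exact 95% upper bound for 0 reads was 0.397 CPM. With 3 reads in place of 0, Muc15 was 3.99-fold lower. Counting error in both libraries left an exact 95% limit of 2.68-fold. Without the requirement on level it was the only member past 2-fold, and it was lower. Muc20, a mucin found in kidney and other epithelia, numbered 5 and 0 reads. With the same 3 reads its level was 1.995-fold lower. The exact limit was 1.10-fold, a limit that no longer excluded equal levels with scaling to the pan-epithelial genes. The last exon of Muc20-202 lies over exons 23, 24 and 25 of Muc4-201 on the opposite strand. How strand was handled in the counting is not stated, so the reads of Muc20 cannot be told apart from reads of Muc4 with certainty. The last exon of Muc4 lies outside the exons of Muc20.

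Markers of stratified squamous epithelium, a tissue of skin and the anal canal, were lower in ERAP1+/-, as Muc15 and Muc20 were. All 20 of 20 were lower in ERAP1+/-, and 17 of 18 were past 2-fold lower, beside 3.96% of all features. The summed level was 3659 CPM in ERAP1 WT and 210 CPM in ERAP1+/-. Flg, Krtdap, Lor and Krt10, proteins of the outer epidermis, had 7952, 3681, 1528 and 3922 reads in ERAP1 WT and 4, 15, 5 and 72 in ERAP1+/-. Muc21, a transmembrane mucin outside the 10, had 17 and 3 reads, and Mucl1, a mucin-like gene, had 15 and 0. With 3 reads in place of 0, Mucl1 was 5.99-fold lower, with an exact 95% limit of 4.29-fold. The part of the squamous tissue in the reads of Muc15 and Muc20 was not tested.

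Muc16, the large transmembrane mucin known as CA125 that mesothelium and surface epithelia carry, had 2 reads in ERAP1 WT and 9 in ERAP1+/-. The ratio was 3.76 with a 95% interval (0.778 to 35.8) that includes 1. Mesothelial markers were higher in 6 of 8 genes, with a median log2 difference of 0.96. Cldn15, a claudin that intestinal epithelium also carries, was past 2-fold (83 and 384 reads), and Gpm6a had 59 and 130 reads. Msln and Lrrn4 had 0 reads in ERAP1 WT and 23 and 28 in ERAP1+/-, Upk3b had 0 and 2, and Wt1 had 2 and 16. The lower genes of the list were Krt19 (log2 difference -0.47) and Nkain4 (13 and 9 reads, -0.44). The summed level of the list was 1408 CPM and 1065 CPM, and Krt19, a keratin also of intestinal epithelium, gave 10776 of its 10941 reads in ERAP1 WT. The part of mesothelium in the reads of Muc16 was not tested.

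The secreted members Muc5b and Muc6 were at the limit of detection. Muc5b had 1 read in ERAP1 WT and 0 in ERAP1+/-, and Muc6 had 0 and 3, so no ratio is given for either. The genes lie on chromosome 7 on both sides of Muc2, Muc6 at 141633456 to 141655319 and Muc5b at 141839070 to 141873084, with 35020 bases between Muc6 and Muc2 and 84376 between Muc2 and Muc5b. Muc2 of the same cluster had 12020 and 32939 reads, whereas Muc5ac, the gel-forming mucin of the stomach surface, had 0 reads in both libraries. Of 13 gastric and duodenal gland genes, 3 reached 10 reads over both libraries, and 8368 of their 8385 reads in ERAP1 WT belonged to Dmbt1, which the colon also expresses, while Bhlha15 had 3 and 15 and Aqp5 6 and 4. Of 12 airway and gland genes, 7 reached 10 reads over both libraries, with a median log2 difference of 0.15, and 3 had 0 reads in ERAP1 WT. Prom1, Scgb1a1 and Cyp2f2 had 1068, 665 and 210 reads in ERAP1 WT and 902, 883 and 295 in ERAP1+/-. The whole list had 2090 reads in ERAP1 WT. Ltf, the lactoferrin of glands and neutrophils, differed most in that list, with 95 and 5 reads (22.7-fold lower, 95% interval 9.41 to 71.7), and was below the level for a call. Of 12 enterocyte genes of the small intestine, 5 reached 10 reads over both libraries. In ERAP1 WT 4 of the 12 had 0 reads, and in ERAP1+/- 3 did. Slc5a1 gave 1273 of the 1637 reads of the list in ERAP1 WT. The 5 genes had a median log2 difference of -0.27. Of these Fabp2 was past 2-fold higher (56 and 299 reads), while Slc5a1 and Apob had differences of -0.34 and 0.12.

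Mucins and mucin-like genes outside the 10 and Muc2 were not past 2-fold at the level for a call. Cd164, a small mucin-like protein of many cells, had 943 and 1255 reads and a ratio of 1.11 (95% interval 1.02 to 1.21). Podxl, Mcam and Emcn, which endothelial cells express, had ratios of 1.36 (1.11 to 1.68), 1.05 (0.826 to 1.35) and 0.629 (0.435 to 0.905). Ovgp1 had 11 and 5 reads. Muc19 and Mucl2 had 0 reads in both libraries and Mucl3 had 0 and 1. Muc12, Muc17 and Muc22 were not among the gene symbols of the series.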

How the data were processed

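RNA of mouse intestine was sequenced from 3' ends (QuantSeq FWD), 1 library per genotype. The values are counts per gene symbol, all whole numbers without normalization, as deposited. The study's methods and labels describe counting by STAR with HTSeq-count and by Bowtie2 with RSEM, on GRCm38. Which route made the values and how strand was used are not stated, and whole numbers can be rounded RSEM estimates.

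TMM factors came from edgeR 4.0.16 under R 4.3.3, at 0.958 for ERAP1 WT and 1.04 for ERAP1+/-. CPM and log2(CPM + 1) followed, a scale that understates differences of genes with few reads. A quasi-likelihood test cannot be fitted to 1 library per genotype, so no p-value is given. Ratios carry exact conditional binomial 95% intervals, levels exact Poisson intervals and shares Clopper-Pearson intervals (scipy 1.17.1), for counting error only. Simulated data with known 4-fold differences and counting error only were used to test the calls and the intervals. They did not test variation between mice or tissue pieces, or differences near 2-fold. Mitochondrial and ribosomal RNA features took 18.0% and 16.7% of the reads.

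The genes and the 12 comparison lists were chosen with earlier results of these data known. Named were all members, other mucins with at least 10 reads over both libraries, Erap1, and of each list the 3 genes with the most reads and up to 3 genes past 2-fold. Muc19, Mucl2, Mucl3, Muc5ac, Cast, Mep1a, Adam10, Adam17, Gcnt3, Klk1, Cdx1, Cdx2, Msln, Lrrn4, Upk3b, Wt1, Nkain4 and Ltf fall outside that rule and were chosen after their values were seen. Alternatives were DESeq2 1.42.0 size factors, other scalings, another pseudocount, other filters and a 4-fold threshold. Positions came from GENCODE M21 (GRCm38) and promoters from RefSeq (GRCm38.p6). Protein features were planned and not analysed here.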

Additional observations from a re-analysis of the deposited data

How the results depend on the processing

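No paired analysis was possible because there is only 1 library for either genotype, which also leaves none to omit. The count of members past 2-fold, 0 of 10, became 1 with scaling by the total count, with scaling to the pan-epithelial list and with a pseudocount of 0.1, where Muc4 was higher, and also 1 with no filter on low values and with at least 10 reads in 1 or both libraries, where Muc15 was lower. The count over all features, 428 (111 higher, 317 lower), was 1434 with no filter on low values, 1390 with at least 10 reads in 1 or both libraries and 160 with a 4-fold threshold. The split of higher and lower moved to 166 and 248 with scaling by the total count and to 224 and 209 with scaling to the pan-epithelial list. In 50 recomputed differences of the members, 0 changed sign and 34 stayed within the counting interval, while the other 16 belonged to Muc13 and Muc3 under the latter 2 scalings and to Muc15, Muc16, Muc20, Muc5b and Muc6. With a pseudocount of 0.1, Muc15 had a log2 difference of -3.79. Depth limits the 5 members with 10 reads or fewer.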
